A study of Paeonia lactiflora with 8 samples.

Results

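Small RNAs of the flower of Paeonia lactiflora, a herbaceous peony, were set against those of root, leaf and fruit. The 2 flower libraries were compared with the 6 other libraries, 2 from each tissue, out of 8 in all. Flower, root and leaf came from blossom, whereas fruit came from the stage of young fruit, and tissue and stage cannot be told apart for fruit. Libraries of a tissue are named biological replicates in the labels, which do not say which plants they came from, and name no treatment; if a pair came from 1 plant or pool, p-values measure only that spread. The deposited table had 304 entries with 270 different mature sequences. The 216 sequences with a normalized read count of 1 or more in 2 or more libraries were tested, and the other 54 were not. The table holds microRNAs (miRNAs) only, so the tissue labels could not be checked against marker genes of flower, root, leaf or fruit.

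Plant miRNAs are short RNAs cut from a hairpin precursor. They guide an ARGONAUTE protein to matching messenger RNAs, which are cleaved or translated less. Many of the old, conserved families act on transcription factors of flower development. miR159 acts on GAMYB genes that anthers need, miR156 and miR157 on SPL genes of the change from juvenile to adult growth, miR172 on AP2-type genes of floral identity, and miR167 on auxin response factors of anther and ovule. The roles named here come from Arabidopsis and other plants and were not measured in peony.

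The sequences the flower comparison turns on are shown first, 5′ to 3′ as deposited, with T for U. Capitals mark the seed, bases 2 to 8, and names are those of the file. The first letters stand for the species whose known miRNA matched, L and R give bases added or lost at either end, and ss gives substitutions. The forms of miR171, miR390 and miR162 that were called higher in flower come first, with the most abundant miR171 and another member with the seed of sly-miR171e:
sly-miR171e: tTGAGCCGcgtcaatatctct
aly-miR171b-3p: tTGAGCCGtgccaatatcacg
ath-miR171a-3p_1ss17AG: tGATTGAGccgcgccagtatc
zma-miR171a-3p_L+1R+1_1ss18AG: cTGATTGAgccgcgccagtatc
ptc-miR390a_R+1: aAGCTCAGgagggatagcgccc
lus-MIR162b-p3_2ss16GA17AG: aGGGTTGTgaagaggagg
Next are the miR156 and miR157 forms whose balance set flower and fruit 2 apart, and the most abundant sequence of the flower libraries:
ath-miR157a-5p_2ss12TG15AG: tTGACAGAagagagggagcac
ath-miR156j_1ss14AT: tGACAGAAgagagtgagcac
gma-MIR156f-p3_1ss12CG: gCTCTCTCttcgtctgtcatca
ath-miR159a: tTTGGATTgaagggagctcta
The last are abundant or regulatory sequences that differed in level between flower and some or all of the other tissues, whether or not they were called:
ath-miR858b: tTCGTTGTctgttcgaccttg
mtr-miR5213-5p_R-1_1ss2AG: tGCGTGTGtcttcacctctga
mes-miR403a_1ss19TC: tTAGATTCacgcacaaacccg
ath-miR390a-3p_1ss8CT: cGCTATCTatcctgagtttca
csi-miR1515: tCATTTTTgcgtgcaatgatcc

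sly-miR171e and aly-miR171b-3p share the seed TGAGCCG and 17 of 21 bases, and differ by T9C, C11T, A19T and G21T, written from aly-miR171b-3p to sly-miR171e and counted from the 5′ end of both. zma-miR171a-3p_L+1R+1_1ss18AG is ath-miR171a-3p_1ss17AG with 1 more base at the 5′ end, which moves the seed, and the 21 bases they have in common are identical. ath-miR157a-5p_2ss12TG15AG has 1 more base at the 5′ end than ath-miR156j_1ss14AT, and over the 20 bases in common they differ by T14G, counted from the 5′ end of ath-miR156j_1ss14AT. Reads of forms this alike could have been split between them in the authors' counting.

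The summed normalized read count was 224292 and 536567 in the flower libraries, against 179334 to 267174 in the 6 others. The depth implied by the smallest steps of the values was 519033 and 724509 reads in flower, against 73898 in root 2 to 331706 in leaf 2, so the flower libraries were the deepest. A value of 3 reads was 1.30 and 2.22 in flower, against 2.23 to 7.62 in the others. These floors cover counting error only. In flower 189 and 173 sequences were above 0, a mean of 181 ± 11.3, against 149 ± 10.8 in the 6 others (SD, n = 2 and 6), and the groups did not overlap. The exact two-sided permutation p was 0.0714, the smallest that 2 libraries against 6 allow, and 0.429 when adjusted over the 12 composition measures tested. Depth moves with this count, and its part in the count was not tested.

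Flower miRNA was concentrated in few sequences, as was that of the other tissues. The 10 most abundant in flower held 80.4% and 89.8% of the flower libraries, against 52.9% to 68.6% of the others, a difference that their choice on flower favours and that was not tested. Counted instead over each library's own 10 leading sequences, the share was 80.6% and 91.4% in flower, against 76.5% to 83.8%, and the groups overlapped (exact permutation p = 0.357). ath-miR159a alone held 32.2% and 57.7% of flower, against 20.3% to 40.01% of the others (exact permutation p = 0.143). Sequences of 21 nt held 82.5% and 94.8% of flower, against 58.5% to 90.4%, and sequences that begin with U held 79.1% and 95.5%, against 75.7% to 90.2%. The flower libraries thus lay on either side of most of the others in these shares. miRNAs that the authors predicted without a known hairpin held 4.91% and 3.73% of flower, against 4.87% to 11.3% (exact permutation p = 0.143).

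**Figure D1:**
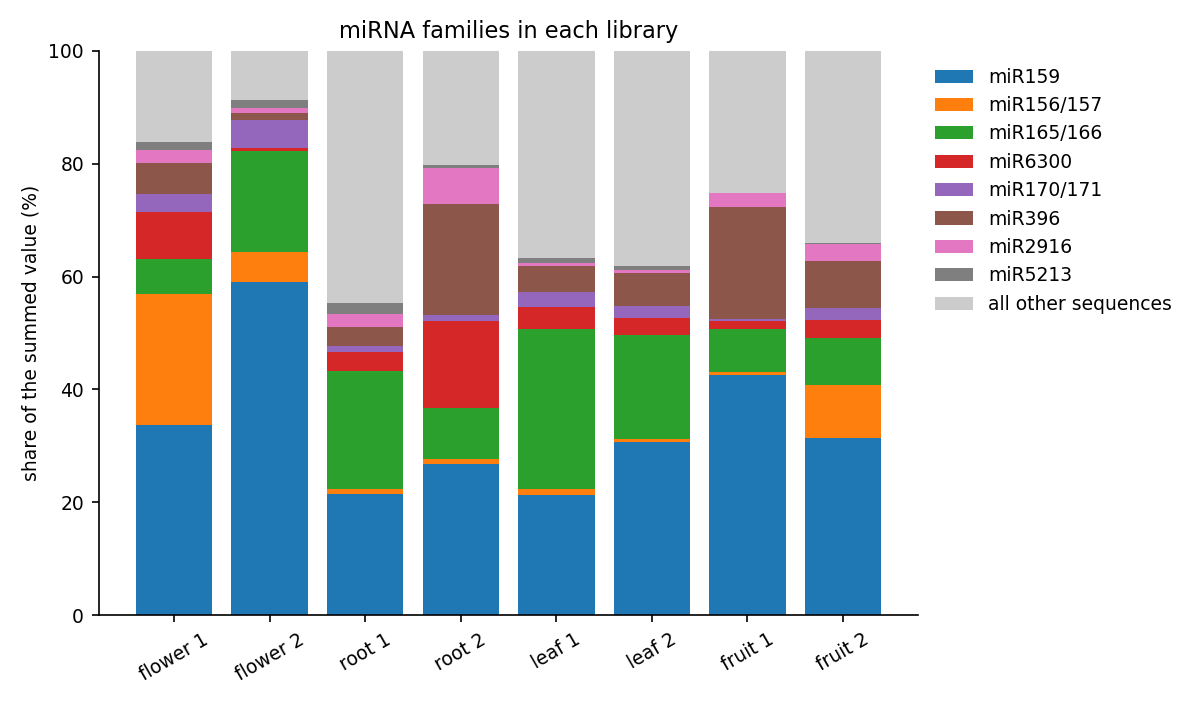
Share of each library's summed normalized read count, in %, held by the 8 families with the highest mean share in flower, one bar per library, flower at the left. The band of miR156 with miR157 is wide in flower 1, flower 2 and fruit 2 and thin in the 5 other libraries.

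Of the 10 leading sequences of flower, 5 were also among the 10 leading in the mean of the other tissues and 5 were not. By mean share of the flower libraries the order was ath-miR159a at 45.0%, ath-miR157a-5p_2ss12TG15AG at 12.4% and bdi-miR166a-3p, which acts on class III HD-ZIP genes of organ polarity, at 11.7%. In the mean of the other tissues these ranked 1, 11 and 2. gma-miR6300_R+5 held 4.49%, but 8.40% of flower 1 and 0.570% of flower 2. Its sequence resembles the 5′ end of a plant aspartate transfer RNA. ath-miR171a-3p_1ss17AG followed at 3.44%, and ranked 12 in the other tissues. gma-miR396a-5p, which acts on growth-regulating factor genes, held 2.17%. Of the rest, gma-MIR156f-p3_1ss12CG (1.52%) ranked 58 in the other tissues and mtr-miR5213-5p_R-1_1ss2AG (1.46%) ranked 23, while the predicted PC-3p-96_26140 (1.54%) and PC-5p-97_25693 (1.33%) ranked 14 and 7.

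By limma on log2(value + 1), 4 of the 216 sequences (1.85%) were called higher in flower than in the mean of root, leaf and fruit, at a Benjamini-Hochberg adjusted p under 0.05, and 0 were called lower. Without the adjustment 35 (16.2%) had a p under 0.05, 25 higher and 10 lower. The 4 were a pair of miR171 forms and low-level forms named miR390 and miR162. Log2 differences given below are of log2(value + 1), a scale on which changes of low values come out smaller than they are. Both flower libraries lay above all 6 others for 21 sequences (9.72%), among them 3 of the 4 called, and below all 6 for 4 (1.85%). These counts are not on equal terms. A sequence at 0 in any other library could not lie below all 6, and 6 of the 21 were at 0 in all other libraries.

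miR171, which acts on SCARECROW-like GRAS genes of meristem and shoot development, had the highest values among these 4. sly-miR171e was 658 and 1776 in flower, against 0 and 0 in root, 3.15 and 8.16 in leaf, and 44.0 and 304 in fruit. Every flower library was above every other library, and root was listed at 0. The log2 difference from the mean of the other tissues was 6.91 ± 1.01 (SE; limma, adjusted p = 0.0237), and the flower mean was 20.3-fold the mean of the 3 tissue means. Against single tissues it was called over root (limma, adjusted p = 0.0178) and leaf (0.0389) and not over fruit (0.259). In flower, the 22-nt zma-miR171a-3p_L+1R+1_1ss18AG reached 167.7 and 787, against 0 and 0 in root, 278 and 209.6 in leaf, and 0 and 0 in fruit. It was thus high in flower and leaf, which overlapped, and listed at 0 in the other 4 libraries. It was called over root (limma, adjusted p = 0.0178) and fruit (0.0356), and against leaf the adjusted p was 0.800.

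The most abundant miR171, ath-miR171a-3p_1ss17AG, was 5789 and 23044 in flower, against 1586 and 1605 in root, 6605 and 4662 in leaf, and 290.3 and 3274 in fruit. Flower overlapped leaf, and the log2 difference of 2.49 ± 1.02 was not called (limma, adjusted p = 0.298). It made up 81.1% and 85.0% of the miR171 value in flower, against 59.6% to 90.8% elsewhere. The share of sly-miR171e in the family was 9.23% and 6.55% in flower, against 0 and 0 in root, 0.0431% and 0.159% in leaf, and 9.18% and 7.81% in fruit. By share, then, sly-miR171e was alike in flower and fruit. aly-miR171b-3p was 286 and 150.1 in flower, against 11.9 to 91.3 in the 6 others, and aly-miR171c-5p_1ss11GC was 122 and 817, against 0 to 62.7. Both flower libraries were above all others for 3 of the 8 tested miR171 members, against 9.72% of all tested sequences. The family sum was 4.84-fold the mean of the other tissues and was not called.

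The flower values of lus-MIR162b-p3_2ss16GA17AG were 13.4 and 8.89, and all 6 other libraries were listed at 0 (log2 difference 3.58 ± 0.43, limma, adjusted p = 0.0237). The values correspond to 31 and 12 reads. It was called over root (limma, adjusted p = 0.0213), leaf (0.0389) and fruit (0.0425). miR162 acts on DICER-LIKE1, the enzyme that makes miRNAs, but this 18-nt sequence is tied to that family by its name alone. ptc-miR390a_R+1 was 4.75 and 4.44 in flower and also listed at 0 in the other 6 (2.48 ± 0.36, limma, adjusted p = 0.0237). These are 11 and 6 reads, and both values lie under the 7.62 that 3 reads are worth in root 2, the shallowest library. Both sequences met the limit for testing through the flower libraries alone. Being high in flower was thus a condition of their being tested, and their p-values give no separate support for that pattern.

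**Figure D2:**
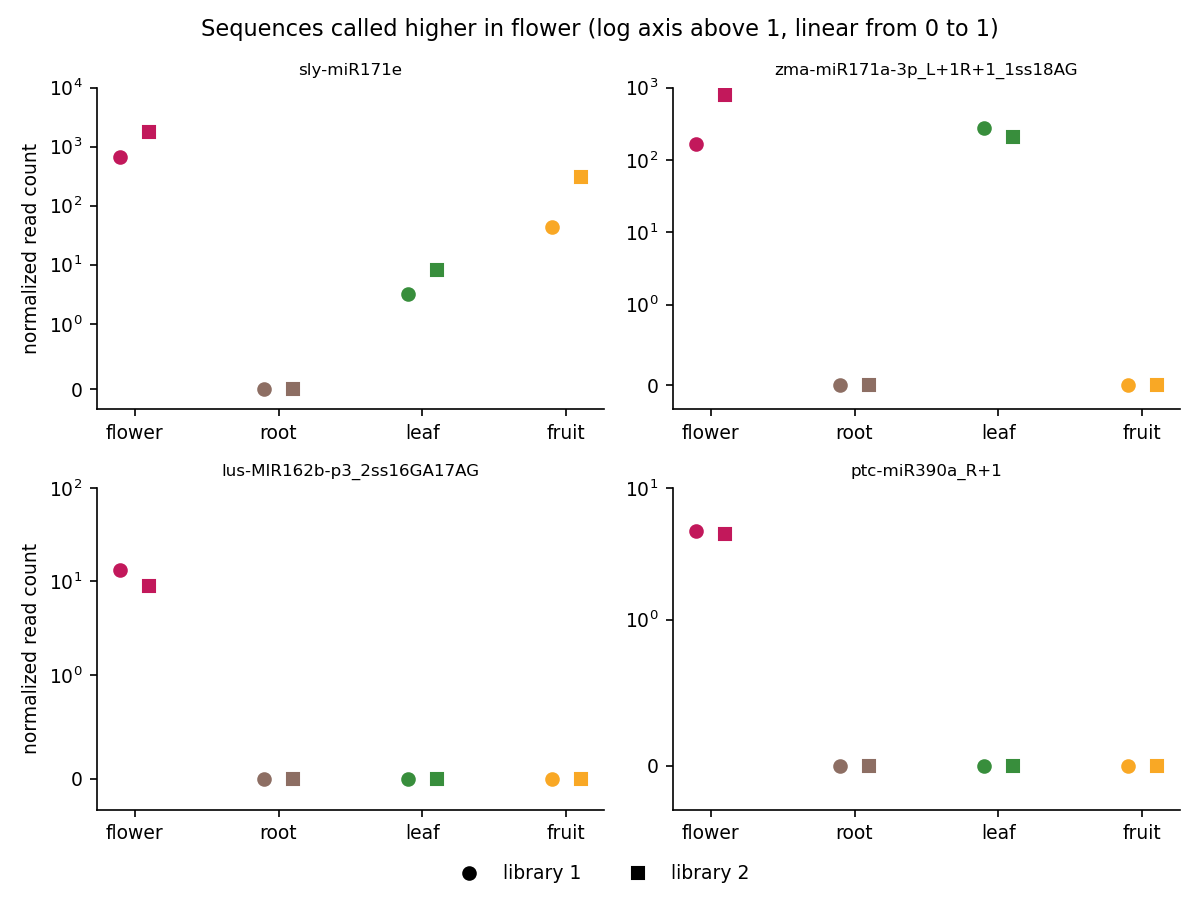
Normalized read count (log axis above 1, linear from 0 to 1) of the 4 sequences called higher in flower, by tissue, circles for library 1 and squares for library 2. sly-miR171e is 658 and 1776 in flower and at most 304 elsewhere; zma-miR171a-3p_L+1R+1_1ss18AG is 167.7 and 787 in flower and 278 and 209.6 in leaf.

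Leaving out either flower library left lus-MIR162b-p3_2ss16GA17AG and ptc-miR390a_R+1 untested, since they were above 0 in flower alone. The 4 calls against the mean of the other tissues depended on single libraries and on the scale. None was made without flower 1, flower 2, leaf 1, leaf 2 or fruit 1, with every library scaled to the same sum, or with 10 added in place of 1, while 21 were called without root 1 and 10 without root 2, each time with all 4 among them.

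miR390 starts the production of short RNAs from TAS3 transcripts, which act on auxin response factors. Its guide form ath-miR390a-5p_1ss19GA was 1904 and 361 in flower, against 923 and 137 in root, 118 and 139 in leaf, and 914 and 407 in fruit, and the groups overlapped. The other arm differed more. ath-miR390a-3p_1ss8CT was 65.7 and 272 in flower, against 14.2 in root 1 and 0 in the other 5 libraries (6.42 ± 1.22, limma, adjusted p = 0.0594). It held 2.97% and 33.8% of the miR390 value in flower, against 1.43% in root 1 and 0 elsewhere. Another form of that arm, ath-miR390a-3p_1ss18TC, was 235 and 166.6 in flower, against 0 to 69.2 in the others. In all, both flower libraries were above the 6 others for 3 of the 5 tested miR390 members, against 9.72% of all tested sequences. Of the 3, ptc-miR390a_R+1, with its 11 and 6 reads, was tested through the flower libraries alone. Its place above the others was thus a condition of testing.

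Among the 10 leading sequences of flower, those with the largest log2 differences were both of the joined miR156 and miR157 family, and neither was called. ath-miR157a-5p_2ss12TG15AG was 45306 and 24954 in flower, against 55.5 and 173 in root, 52.4 and 17.8 in leaf, and 29.3 and 15531 in fruit. Both flower libraries were above all others, and fruit 2 stood near them and far from fruit 1. The log2 difference was 8.02 ± 2.18 and was not called (limma, adjusted p = 0.162). Without fruit 2 it was 9.52 and was called (limma, adjusted p = 0.0110); over all alternatives the adjusted p ran from 0.0110 to 0.639. gma-MIR156f-p3_1ss12CG, an opposite-arm form, was 5757 and 2500 in flower, against 37.0 and 0 in root, 44.0 and 0 in leaf, and 0 and 698 in fruit (8.52 ± 2.84, limma, adjusted p = 0.216).

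ath-miR156j_1ss14AT lay on the other side. It was 600.02 and 462 in flower, against 998 and 1297 in root, 1193 and 845 in leaf, and 618 and 902 in fruit. Both flower libraries were below all 6 others, with 600.02 in flower 1 close to 618 in fruit 1. The log2 difference of −0.85 ± 0.52 was not called (limma, adjusted p = 0.511). Of the summed miR156 and miR157 value, ath-miR157a-5p_2ss12TG15AG held 86.9% and 89.1% in flower, against 1.43% to 10.8% in root, leaf and fruit 1 and 90.0% in fruit 2. ath-miR156j_1ss14AT held 1.15% and 1.65% in flower, against 41.5% to 85.0% in root, leaf and fruit 1 and 5.23% in fruit 2. The make-up of the family in flower was therefore shared by fruit 2 and by no other library. The family sum was 52122 and 28011 in flower, against 2033 and 1606 in root, 2874 and 1247 in leaf, and 727 and 17259 in fruit (4.06 ± 1.15, limma, adjusted p = 0.195).

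**Figure D3:**
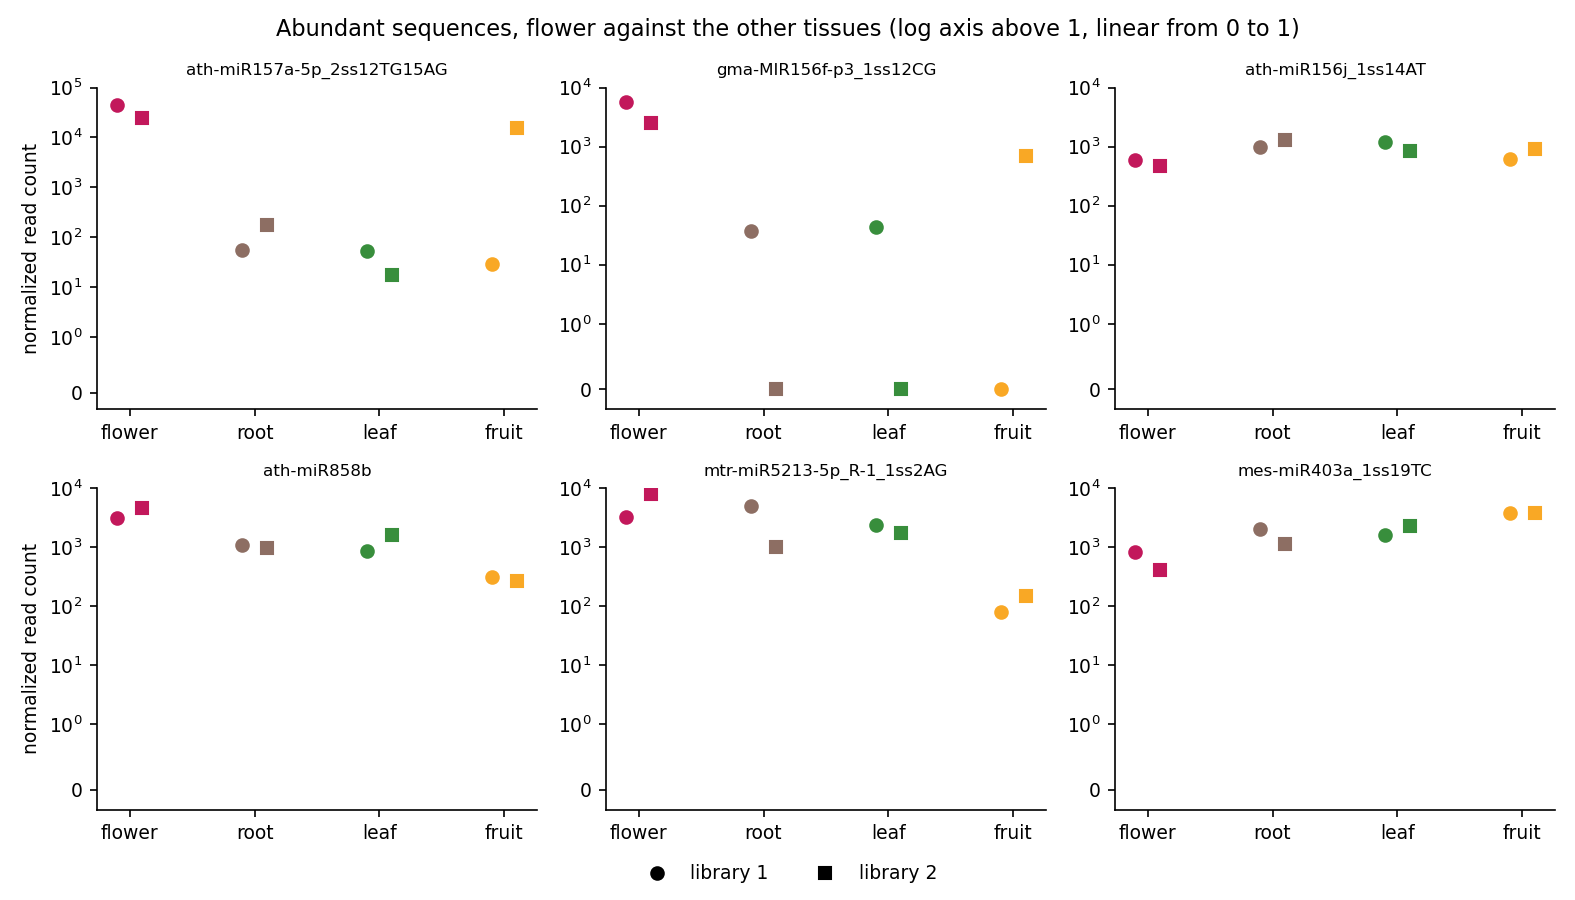
Normalized read count (log axis above 1, linear from 0 to 1) of 6 abundant sequences by tissue, circles for library 1 and squares for library 2. ath-miR157a-5p_2ss12TG15AG is 45306 and 24954 in flower and 15531 in fruit 2, and at most 173 in the 5 other libraries; mes-miR403a_1ss19TC is lowest in flower.

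ath-miR858b acts on MYB genes of flavonoid and phenylpropanoid synthesis. It was 3138 and 4664 in flower, against 1090 and 971 in root, 856.6 and 1597 in leaf, and 308 and 267 in fruit. Every flower library was above every other library. It was called over fruit (3.73 ± 0.65, 13.5-fold; limma, adjusted p = 0.0462), one of 5 sequences called in that comparison (2.31%), and against the mean of the other tissues it was not (2.44 ± 0.53, 4.60-fold; limma, adjusted p = 0.0778). mtr-miR5213-5p_R-1_1ss2AG, whose Medicago relative acts on TIR-type NLR immune receptor genes, was 3267 and 7796 in flower, against 4893 and 999 in root, 2353 and 1699 in leaf, and 78.9 and 148 in fruit. It overlapped root and was called over fruit alone (5.53 ± 0.97, 48.7-fold; limma, adjusted p = 0.0462). Leaving out any one of the flower, leaf or fruit libraries ended both of these calls over fruit (limma, adjusted p from 0.131 to 0.336).

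Against root, 6 sequences were called (2.78%), 4 higher in flower (1.85%) and 2 lower (0.926%). The 4 higher were those called against the mean. The 2 lower were listed at 0 in flower: bdi-MIR9483a-p3_2ss12TC18AG was 21.3 and 53.4 in root (limma, adjusted p = 0.0193), and aqc-miR535_R-1, of a family that acts on SPL genes, was 48.4 and 12.7 (0.0317). Both were at 0 in leaf and fruit too, so they met the limit for testing through the root libraries alone. Against leaf, 5 were called (2.31%), 3 higher in flower (1.39%) and 2 lower (0.926%). The 2 lower were forms named miR5368, gma-MIR5368-p3_1ss7TC at 23.1 and 10.4 in leaf and gma-MIR5368-p3_2ss1AT18CA at 13.6 and 7.42, listed at 0 in every other library (limma, adjusted p = 0.0389 each). They met the limit for testing through the leaf libraries alone. For every sequence called lower in flower, the pattern was thus a condition of testing, and the p-values give no separate support for it. The 3 comparisons share the flower libraries. Over them, 10 sequences were called at least once, and lus-MIR162b-p3_2ss16GA17AG and ptc-miR390a_R+1, both tested through the flower libraries alone, were called in all 3. With 1 library left out, counts against root were 24 without root 1, 10 without root 2, 3 without fruit 1 or fruit 2, 1 without flower 1 and 0 without flower 2, leaf 1 or leaf 2, and counts against leaf were 21 without root 1, 20 without root 2, 1 without fruit 1 or fruit 2 and 0 without either flower or leaf library. The sequences lower in flower were called in 7 of 20 alternatives for bdi-MIR9483a-p3_2ss12TC18AG, 5 of 20 for aqc-miR535_R-1, 6 of 20 for gma-MIR5368-p3_1ss7TC and 7 of 19 for gma-MIR5368-p3_2ss1AT18CA.

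The 4 sequences that were below all 6 others in both flower libraries included members of families that act on silencing and on flowering. mes-miR403a_1ss19TC, which acts on AGO2 of antiviral silencing, was 821 and 404 in flower, against 2009 and 1131 in root, 1572 and 2273 in leaf, and 3802 and 3718 in fruit. Flower was the lowest tissue, 3.95-fold below the mean of the others, and was not called (−1.93 ± 0.56, limma, adjusted p = 0.164). aly-miR172b-5p_1ss2CT, the 5p arm of a miR172 hairpin, was 19.7 and 0 in flower, against 26.7 to 321 (−4.36 ± 1.27, limma, adjusted p = 0.164). Another 5p form, ptc-miR172b-5p, had a difference in the other direction and overlapped the others. It was 73.2 and 5.55 in flower, against 0 to 35.6 (1.74 ± 1.41, limma, adjusted p = 0.609). The main miR172 form, nta-miR172d, was 243 and 80.4 in flower, against 365 to 420.4 in root and 335 to 1102 in leaf, and fruit 2 lay between the flower libraries. With ath-miR156j_1ss14AT above, the 4 were completed by the predicted PC-5p-58724_76, at 7.35 and 8.15 in flower, against 12.6 to 50.8.

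Of the 21 sequences high in flower, 10 were 21 nt long (47.6%, against 44% of all 216 tested), 3 were 22 nt (14.3%, against 13%), 5 were 18 or 19 nt (23.8%, against 31.5%), and 11 began with U (52.4%, against 53.7%). In length and first base they were thus close to all tested sequences. sbi-miR169e and nta-miR169b, which act on NF-YA genes and share the seed AGCCAAG, were 35.6 and 30.4 and 59.2 and 88.9 in flower and listed at 0 in both fruit libraries. The miR169 sum was 117 and 133 in flower, against 50.3 to 75.5 in root and leaf and 5.58 and 0 in fruit. csi-miR1515, which acts on DICER-LIKE2 in soybean, was 83.4 and 1121 in flower, against 26.2 to 68.3, so flower 2 carried most of that difference (2.82 ± 1.12, limma, adjusted p = 0.288). Listed at 0 in all other libraries were 6 of the 21, with flower values from 1.30 to 13.4, so they met the limit for testing through flower alone. Among these, lus-MIR162b-p3_2ss16GA17AG alone had both flower values above what 3 reads are worth in every other library.

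**Figure D4:**
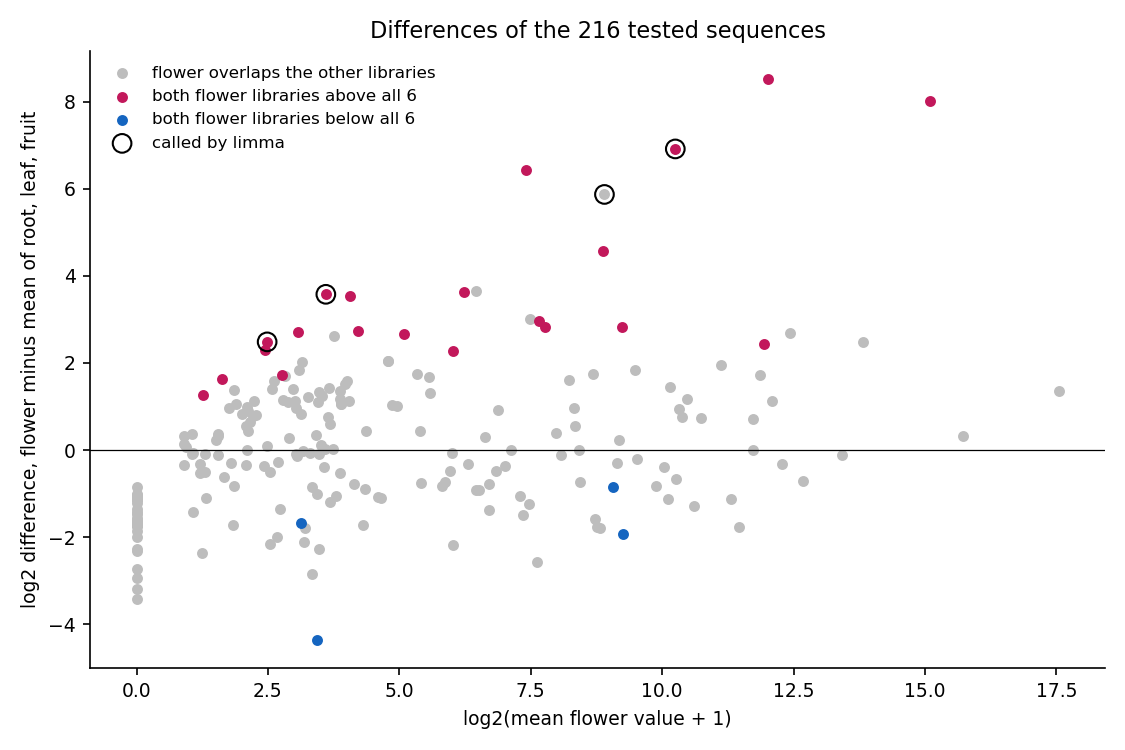
Log2 difference, flower minus the mean of root, leaf and fruit, against log2(mean flower value + 1), one point for each of the 216 tested sequences. Red points have both flower libraries above the 6 others (21), blue points below (4), and rings mark the 4 called, which span low and high levels.

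Summed by numbered family, 82 families were tested and 0 (0%) were called against the mean of the other tissues by limma, with 13 at an unadjusted p under 0.05, 9 higher and 4 lower. Both flower sums were above all 6 others for 7 families (8.54%) and below for 1 (1.22%). A family at 0 in any other library could not lie below. The 7 were miR156 with miR157, miR858, miR169 and miR1515 and the low-level miR9761, miR6450 and miR1083, and the 1 was miR403. miR6450 and miR1083 were at 0 in all 6 others and met the limit for testing through flower alone. Their place above the others was thus a condition of testing. Against fruit 4 families were called (4.88%). miR858, miR5213 and miR169 were higher, and miR6022 was lower, at 9.94 and 36.3 in flower against 708 and 452 in fruit (limma, adjusted p = 0.0453). miR393, which acts on auxin receptor genes, was 387 and 74.1 in flower, against 3716 and 4108 in leaf and 186 to 851 in root and fruit (−2.32 ± 0.81, limma, adjusted p = 0.219). With the values scaled in 4 other ways, these families and miR171 kept the sign of the difference from the mean of the other tissues, and miR165 with miR166 changed sign in 2 of the 4.

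Grouped by best-known targets, the lists held few calls, as did all 216 sequences together (4, 1.85%). Against the mean of the other tissues, developmental transcription factors had 2 of 32 members called, both miR171, auxin 1 of 19, and silencing machinery 1 of 10, all higher in flower, while phase change (19), MYB and TCP (16), nutrient (16), NLR immune receptors (12), copper (6), the predicted miRNAs (19) and the 67 on no list had 0. The auxin call was ptc-miR390a_R+1 and the silencing call was lus-MIR162b-p3_2ss16GA17AG. Both were tested through the flower libraries alone, so these calls give no separate support for a difference of either list. The median log2 difference was 0.01 over all 216, with a range over the lists of −1.77 in copper to 1.14 in nutrient. When values under the 3-read floor of root 2 were raised to that floor, the nutrient median was 0.05 and the copper median −0.76, against −0.12 over all. Both medians thus moved further than that of all sequences. The phase change median went from −1.43 to −0.23, while that of silencing machinery stayed at −0.58. The highest list at the floor was MYB and TCP, at 0.26, so the order of the lists changed.

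The shares that some lists held of each library are given without a test, and they depend on the share of ath-miR159a. Copper miRNAs, which lower the copper proteins laccase, plantacyanin and superoxide dismutase, held 0.00495% and 0.00720% of flower, against 0.606% and 0.246% of leaf and 0.00599% to 0.0283% of root and fruit. Their most abundant member in flower, ath-miR408-3p_L-1R+1_2ss12CT15CT, was 0 and 16.3 in flower, against 624 and 404 in leaf. The auxin list held 2.20% and 0.893% of flower, against 14.9% and 16.6% of leaf, 2.46% and 1.49% of root, and 2.07% and 10.8% of fruit. Flower was thus under leaf and overlapped root and fruit. In leaf the list was mostly vvi-miR167b, at 12.6% and 14.2%, against 0.832% and 0.603% of flower. ath-miR390a-5p_1ss19GA held more of flower 1, at 0.849%. The values of vvi-miR167b were 1865 and 3233 in flower, against 33594 and 34830.2 in leaf, 557 and 1495 in root, and 1316 and 18585 in fruit. The silencing list held 2.81% and 0.868% of flower, against 3.41% to 20.1% of the others, and its most abundant member, ath-miR168a-5p, which acts on AGO1, was 2980 and 2629, against 2312 to 45382. None of vvi-miR167b, ath-miR168a-5p and ath-miR408-3p_L-1R+1_2ss12CT15CT was called in any of the comparisons (limma).

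**Figure D5:**
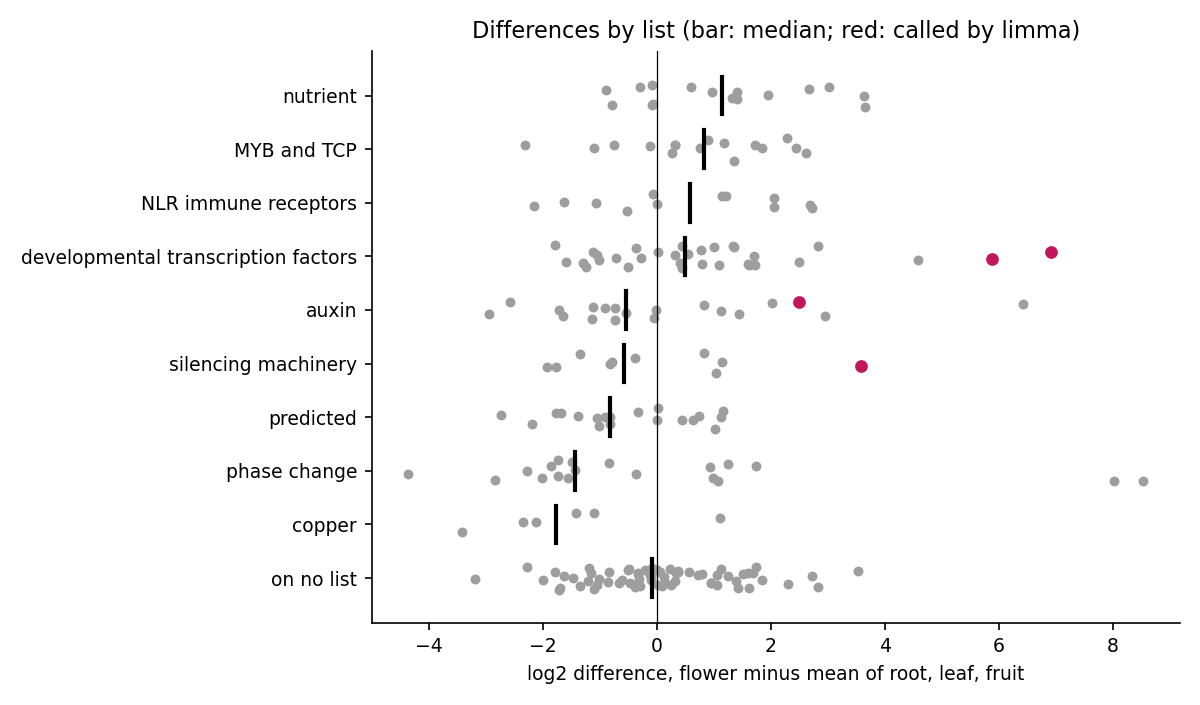
Log2 difference, flower minus the mean of root, leaf and fruit, for the members of each target list, one point a sequence, with a black bar at the list's median and red points for the 4 called. Medians run from −1.77 in copper to 1.14 in nutrient, and the points of every list lie on both sides of 0.

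Over the 216 sequences, which are not independent, the log2 values of flower 1 and flower 2 correlated at Pearson's r = 0.867. With single libraries of the other tissues r was 0.701 to 0.850 for flower 1 and 0.629 to 0.797 for flower 2, and for both the highest was with fruit 2. Depth differs between these libraries, and its part in the order was not tested. The flower libraries also differed from each other. Over the 62 sequences that averaged 100 or more in flower, the larger value was a median of 2.99-fold the smaller, with 31 higher in either library, among them gma-miR6300_R+5 at 18850 and 3059 and bdi-miR166a-3p at 12937 and 95109.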

How the data were processed

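Small RNA libraries of 8 samples were used. Per the labels' protocols, reads were cleaned and counted with ACGT101-miR, and reads of common RNA families and repeats were removed. The deposited values are normalized read counts (a signal) per mature miRNA, scaled by the authors; the normalization formula, versions and build were not given in the sources used here. No genome positions are printed. No column of another sample was present (0).

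Entries with the same sequence (33 sequences, identical values) were merged under the first name, and values were turned into log2(value + 1). The plan named a count model for raw counts, and normalized values called for limma 3.58.1 (R 4.3.3), with tissue as the only term, all 8 libraries, a mean-variance trend, 4 residual and 2.43 prior degrees of freedom (3.83 for families), and Benjamini-Hochberg adjustment over all tested. A contrast compared flower with the mean of the 3 tissue means, and flower with each tissue. Composition used an exact permutation test (scipy 1.17.1, Python 3.11.15). Depth was inferred from the smallest common step of the values, taken as 1 read; within a tolerance of 0.01 step, 75.7% to 83.2% of values above 0 were whole steps, so no count model was run. A fold is a ratio of means of the normalized counts, and none is given against a tissue listed at 0.

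Named sequences were the 10 with the highest mean share of flower, called sequences (those against the mean of the other tissues with a mean of 10 or more in the higher side, and all called in a pair), and each list's called and most abundant members in flower. The others named lay above or below all 6 other libraries in both flower libraries, or belong to the families described; these were chosen after their values were seen. The lists group family numbers by best-known targets in other plants. Members and lists were chosen with earlier results of these data known. The fit was tested on simulated data. Alternatives covered the pseudocount, filters, scalings, weights, the trend, merging and leaving out each library.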

Additional observations from a re-analysis of the deposited data

How the results depend on the processing

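Against the mean of the other tissues, 4 sequences were called, 8 with 0.5 added and 0 with 10 added or with equal library sums; leaving out each library gave 0 to 21. Against root (6), counts were 0 with 10 added, library weights, only the groups compared or values raised to the 3-read floor of root 2, 2 without a filter or with a minimum of 10, 3 with quantile normalization or no trend, and 0 to 24 with a library left out. Against leaf (5), counts were 0 with 10 added, without a filter, with a minimum of 10, quantile normalization, equal sums with or without miR159 or no trend, 9 at the floor, 14 with weights, 20 with only the groups compared, and 0 to 21 with a library left out. Against fruit (5), counts were 0 with 10 added, only the groups compared or at the floor, 1 without a filter, with a minimum of 10, quantile normalization or equal sums with or without miR159, 2 with no trend, 8 with weights, and 0 to 18 with a library left out. The floor and the sums without miR159 were chosen after seeing the data. Of family sums (0 called), 1 was called with quantile normalization and 0 to 1 with a library left out. With the replicate number as a block, 0 sequences were called against the mean, 1 against root, 0 against leaf and 0 against fruit; deviations of same-numbered libraries correlated at −0.20 to 0.24, and the labels state no pairing. The flower-minus-others difference in share ran from −1.54 to 10.8 percentage points for 21 nt (−0.476 without root 2, −1.54 without flower 2), and from −5.68 (without flower 2) to 10.7 for a first base U. Differences on the log2 scale changed sign for PC-5p-97_25693 (−0.90 to 0.24 with a library left out, 0.24 without flower 1), bdi-miR166a-3p (−0.27 with quantile normalization, −0.35 with equal sums, −1.11 to 1.76 with a library left out, lowest without flower 2) and gma-miR6300_R+5 (−1.43 to 1.19 with a library left out, 1.19 without flower 2, 0.18 without root 2, 0.08 without fruit 2). The 4 called sequences were called in 12 of 22 alternatives for sly-miR171e (limma, adjusted p 0.0195 to 0.552), 11 of 22 for zma-miR171a-3p_L+1R+1_1ss18AG (0.0195 to 0.696), 12 of 19 for lus-MIR162b-p3_2ss16GA17AG (0.00667 to 0.257) and 7 of 19 for ptc-miR390a_R+1 (0.00976 to 1). The median log2 difference shifted by −0.21 with quantile normalization, −0.37 with equal sums and −0.12 with equal sums without miR159. Beyond fewer samples or tested sequences where those were the change, the cause was not tested. Depth limits sequences with values under 7.62, the 3-read floor of root 2.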

Other observations

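At least 1 flower library was above 0 with all 6 others at 0 for 29 sequences, and both were for 6. The highest value among the 29 was 23.7, or 32 reads, for lus-MIR156f-p5_2ss2TC18TG in flower 2, with 0 in flower 1. Next were pab-miR950-5p_1ss2CG and osa-MIR5505-p3_2ss4TG20TC, each at 0 in flower 1 and 17.03 in flower 2. ath-miR172c_L-1, a 20-nt form of the miR172 arm that acts on AP2-type genes, was 1.30 and 1.48 in flower, or 3 and 2 reads.

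Both flower libraries were at 0 for 56 sequences, and for 5 of these at least 4 of the 6 other libraries were above 0. mtr-miR397-5p_L-2R+2, whose family acts on laccases, was listed at 0 in flower and root, against 215.98 and 40.8 in leaf and 5.58 and 23.98 in fruit. hbr-MIR6173-p5 was listed at 0 in flower and fruit, against 2.85 and 59.7 in root and 55.6 and 41.2 in leaf. cca-MIR167-p3_1ss2GA, the other arm of a miR167 hairpin, was 0 in flower, against 0 to 132 elsewhere, with the highest value in fruit 1. A value of 3 reads was 1.30 and 2.22 in the flower libraries.

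Within flower, cpa-miR8155_L-1 was 223 in flower 1 and 3.70 in flower 2, and the predicted PC-3p-122_21043 was 363 and 6391.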
